A study of Drosophila melanogaster with 3 samples.

Results

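Messenger RNA fragments recovered with the exon junction complex (EJC) were compared between a pair of tandem purifications that pass through the same 2 proteins, eIF4AIII and Y14, in opposite order. The members are the peak lists of these 2 libraries, chosen by the labelled order of tag and antibody out of the 3 libraries of the series. They hold 51039 of its 87432 peaks. In 1 library the tagged protein was eIF4AIII and the antibody was raised against endogenous Y14, written eIF4AIII/Y14 below. In the other the tagged protein was Y14 and the antibody was raised against endogenous eIF4AIII, written Y14/eIF4AIII. The third library, tagged Btz (Barentsz) followed by endogenous eIF4AIII and written Btz/eIF4AIII, is used only as a reference.

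All 3 libraries came from S2 cells, an established hemocyte-like line of Drosophila melanogaster, grown at 24 °C. The tagged protein was expressed from a copper-inducible construct for 72 h, beside the endogenous protein. The cells then received cycloheximide at 100 µg/ml for 2 h, an inhibitor of translation elongation. Complexes were taken up on anti-Flag gel, eluted, selected on oligo(dT) beads, digested for 15 min with MNase (micrococcal nuclease) and then bound by the antibody. The digestion took 0.5 units of nuclease in eIF4AIII/Y14, 0.5 units in the Btz/eIF4AIII library and 0.3 units in Y14/eIF4AIII. With 1 library per purification no difference could be tested, and order of purification, tagged protein, antibody and amount of nuclease cannot be told apart. Intervals in parentheses are 95% intervals over peaks or pairs. They cover counting error only and treat peaks as independent.

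The EJC is assembled on RNA by the spliceosome and stays a short distance upstream of the junction between joined exons until the first ribosome passes. eIF4AIII, a DEAD-box RNA helicase, is the subunit that clamps the RNA. Y14 binds as a dimer with Mago nashi and holds the helicase in its closed, RNA-bound form, while Btz contacts both eIF4AIII and RNA. In flies the complex is known for the localization of oskar mRNA in the oocyte and for the splicing of genes with long introns. MNase cuts RNA that no protein covers, so the length of a recovered fragment depends both on the protein footprint and on the digestion.

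The eIF4AIII/Y14 list held 34945 peaks and the Y14/eIF4AIII list 16094, a ratio of 2.17. The depth of a peak is the authors' deposited value, a mean number of reads per base that is not scaled to library size. The median depth was 52 in eIF4AIII/Y14 and 34 in Y14/eIF4AIII, and depth is used below only to rank peaks within a list. The sources used here do not give read totals, so sequencing depth is unknown. In each list, neighbouring peaks on a strand were never closer than 25 nt. Because the sequence names are those of release 5 of the fly genome and the annotation at hand is of release 6, peaks were not assigned to genes or exons, and places are given by release 5 coordinates, 1-based.

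The lists differed in peak width in a way that touches every comparison of peak ends. The median width was 31 nt in eIF4AIII/Y14 (quartiles 22 and 40 nt) and 48 nt in Y14/eIF4AIII (quartiles 31 and 65 nt). In eIF4AIII/Y14, 3137 peaks (8.98%) were exactly 40 nt wide, against 271 peaks of 39 nt and 449 of 41 nt. The Y14/eIF4AIII list had 249 peaks of 40 nt, beside 243 of 39 nt and 239 of 41 nt. It had its own spike at 76 nt, with 631 peaks (3.92%) against 48 of 75 nt and 64 of 77 nt. The Btz/eIF4AIII list, digested with the same amount of MNase as eIF4AIII/Y14, also had its spike at 76 nt, with 2331 peaks. Peaks wider than 40 nt made up 23.0% of the eIF4AIII/Y14 list and 61.2% of the Y14/eIF4AIII list. The sources used here do not give the read lengths, and their part in the widths was not tested. Peaks were not assigned to genes, so the S2 label could not be checked against marker genes.

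**Figure D1:**
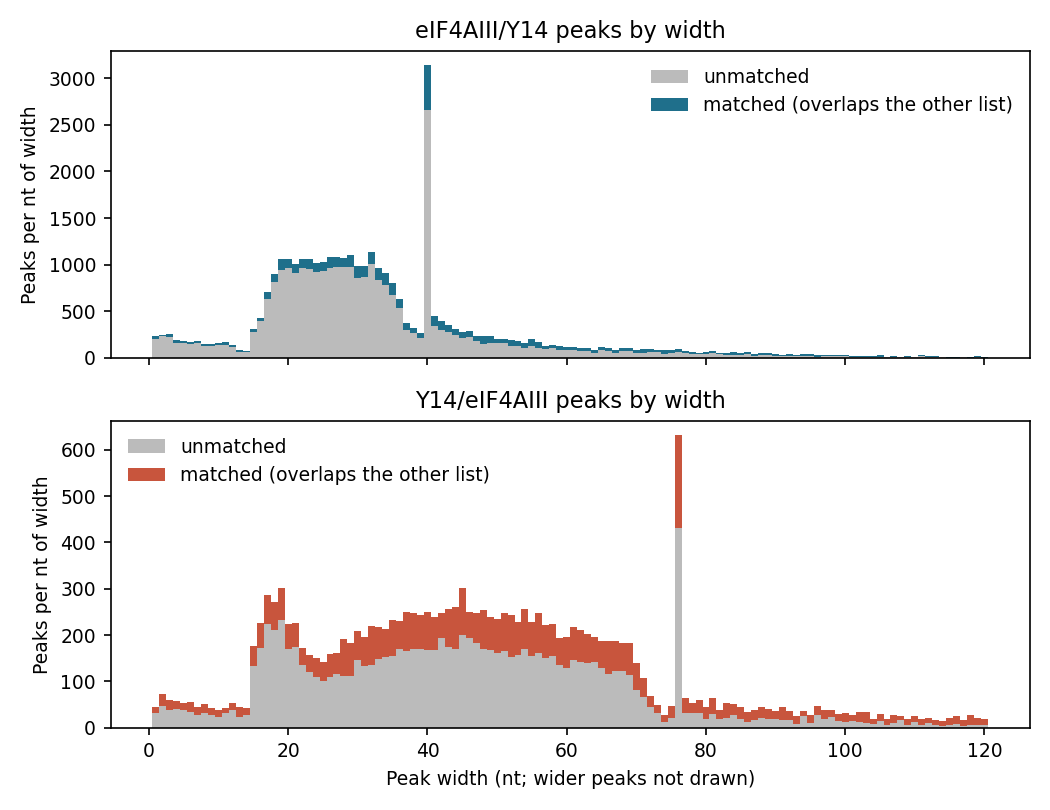
Peaks per nt of width (x axis, nt; y axis, number of peaks) in eIF4AIII/Y14 (upper panel) and Y14/eIF4AIII (lower panel), with peaks that overlap the other list in colour stacked on peaks that do not in grey. The upper panel has a spike of 3137 peaks at 40 nt and the lower panel one of 631 peaks at 76 nt. Peaks over 120 nt wide (399 and 714) are not drawn.

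The first comparison asked how many places were marked whichever protein carried the tag. Of the eIF4AIII/Y14 peaks, 16.7% (16.3 to 17.1; 5841 peaks) shared at least 1 bp with a Y14/eIF4AIII peak on the same strand. Of the Y14/eIF4AIII peaks, 35.1% (34.4 to 35.8; 5649 peaks) shared at least 1 bp with an eIF4AIII/Y14 peak. These peaks are called matched below. Overlap with peaks of the opposite strand, measured the same way, reached 0.564% (0.488 to 0.648) and 1.19% (1.03 to 1.37), so that the same strand gave 29.6 times as many matches in each direction. This ratio is not a measure against chance. Opposite-strand overlap does not show how often peaks on the same transcripts would meet by position alone, and that was not computed. Matched peaks held 39.7% of the summed depth of eIF4AIII/Y14 and 53.9% of that of Y14/eIF4AIII, more than their share of peaks. Summed depth grows with width, and matched peaks also held 23.3% and 42.2% of the bases covered by peaks. The matches were mostly simple: 5710 of the matched eIF4AIII/Y14 peaks had 1 partner and 131 had more, up to 3. Among matched Y14/eIF4AIII peaks 281 spanned more than 1 partner, up to 6. The shares fell to 8.05% and 17.5% under a requirement of 50% overlap on both sides, and to 4.30% and 17.0% when the lists were limited to peaks under 40 nt. With lists of equal length, cut to the deepest eIF4AIII/Y14 peaks, the Y14/eIF4AIII share was 19.55%.

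Matched peaks were wider than unmatched ones in both lists. Their median width was 40 nt in eIF4AIII/Y14, against 29 nt (29 to 30) for unmatched peaks. In Y14/eIF4AIII it was 53 nt (52 to 54), against 45 nt (45 to 46). The matched share of eIF4AIII/Y14 peaks went from 9.52% (8.91 to 10.2) at 15 to 24 nt to 30.9% (29.3 to 32.5) at 50 to 74 nt and 58.8% (54.8 to 62.7) at 100 to 149 nt. In Y14/eIF4AIII the same classes had 23.1% (21.3 to 24.9), 33.5% (32.1 to 34.8) and 62.9% (59.6 to 66.1). The narrowest peaks, of 1 to 14 nt, did not follow this order. Their shares were 13.1% (11.8 to 14.5) in eIF4AIII/Y14 and 34.99% (31.5 to 38.6) in Y14/eIF4AIII. From 150 nt upwards 85.4% (81.1 to 89.0) of the Y14/eIF4AIII peaks were matched. A wider peak meets the requirement of 1 bp more easily, so these shares combine the width itself with whatever goes with it. From 25 to 49 nt the Y14/eIF4AIII share was nearly level, with 33.2% at 25 to 34 nt and 30.1% at 35 to 49 nt.

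Matched peaks were also deeper within their own list. As a percentile of depth, with 100 the deepest, the median matched peak stood at 57.6 (56.4 to 58.8) in eIF4AIII/Y14 and the median unmatched peak at 48.5 (47.9 to 49.1). In Y14/eIF4AIII they stood at 56.9 (55.5 to 58.2) and 46.3 (45.4 to 47.1). The lists were divided into 10 depth classes, of near-equal size in eIF4AIII/Y14 and of 1280 to 1981 peaks in Y14/eIF4AIII. In eIF4AIII/Y14 the share ran between 12.3% (11.3 to 13.4; class 1) and 17.1% (15.9 to 18.4; class 6) in classes 1 to 9, and was 29.9% (28.3 to 31.4) in class 10, the deepest. That class had a median width of 40 nt, against 28 to 30 nt in the others. In Y14/eIF4AIII the share was 27.5% (25.4 to 29.8) in class 1, 43.7% (41.3 to 46.2) in class 8 and 40.6% (38.2 to 43.0) in class 10, with median widths of 29, 63 and 60 nt. Among peaks of similar width, those above the median depth of their width class were matched more often in each class of eIF4AIII/Y14. The intervals overlapped at 1 to 14 nt, 15 to 24 nt and from 150 nt upwards. In that list, at 50 to 74 nt, 34.9% (32.6 to 37.3) of those above the median depth of the class were matched and 26.9% (24.7 to 29.1) of the others. The width class of 50 to 74 nt was the exception in Y14/eIF4AIII, with 30.8% (28.9 to 32.7) above the median depth and 36.1% (34.2 to 38.1) of the others. At 1 to 14 nt and 35 to 49 nt of Y14/eIF4AIII the intervals overlapped.

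**Figure D2:**
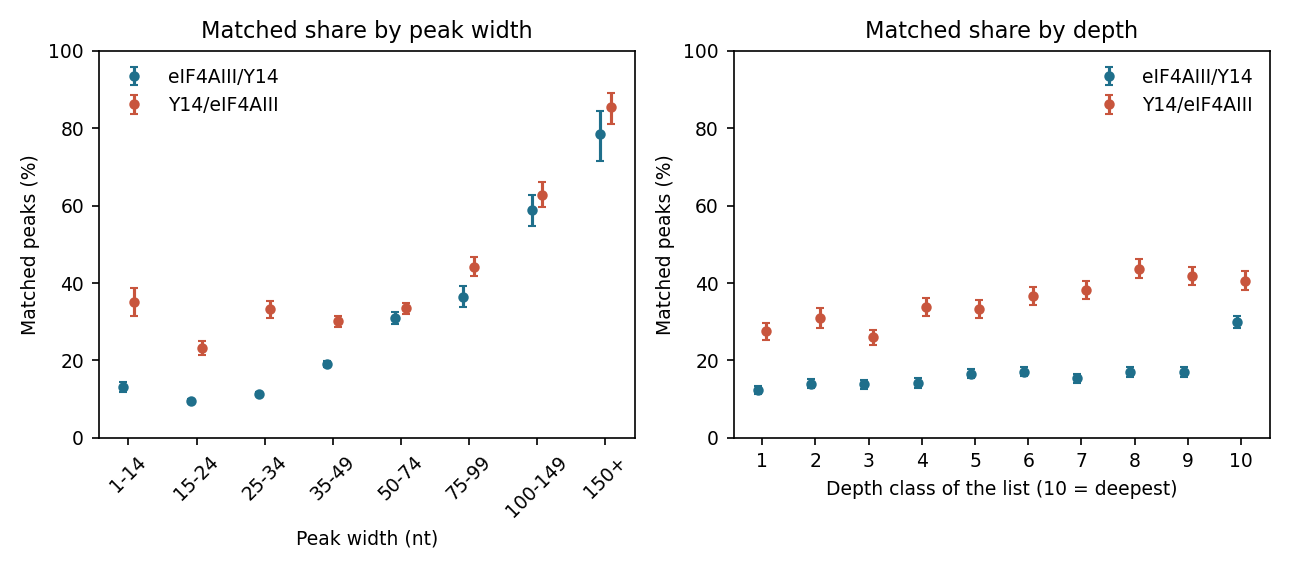
Matched peaks (y axis, %) by peak width (left, nt) and by depth class within the list (right, class 10 the deepest), for eIF4AIII/Y14 and Y14/eIF4AIII; bars are exact 95% binomial intervals. The share was 9.52% at 15 to 24 nt and 58.8% at 100 to 149 nt in eIF4AIII/Y14. By depth, class 10 of that list stands apart at 29.9%.

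Matched peaks lay in denser neighbourhoods. The median distance to the nearest peak of the same list and strand was 96 nt (93 to 101) for matched and 192 nt (188 to 195) for unmatched eIF4AIII/Y14 peaks. It was 171 nt (162 to 181) and 556 nt (531 to 586) in Y14/eIF4AIII. They were also marked more often in the Btz/eIF4AIII purification. A Btz/eIF4AIII peak overlapped 69.7% (68.5 to 70.9) of the matched eIF4AIII/Y14 peaks and 36.2% (35.7 to 36.8) of the unmatched ones. For Y14/eIF4AIII the shares were 71.1% (69.9 to 72.3) and 30.5% (29.6 to 31.4). Width, depth and density move together with these shares, and their part was not tested.

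Many unmatched peaks had a peak of the other list nearby. Of the 29104 unmatched eIF4AIII/Y14 peaks, 4.38% (4.15 to 4.62) lay less than 25 nt from a Y14/eIF4AIII peak on the same strand, 15.8% (15.4 to 16.2) less than 100 nt and 59.1% (58.5 to 59.7) less than 1000 nt. The median distance was 628 nt. Of the 10445 unmatched Y14/eIF4AIII peaks, 10.1% (9.58 to 10.7) lay within 25 nt of an eIF4AIII/Y14 peak, 30.3% (29.4 to 31.2) within 100 nt and 74.6% (73.7 to 75.4) within 1000 nt, at a median of 245 nt. The neighbour within 100 nt was upstream of 2634 and downstream of 2397 unmatched eIF4AIII/Y14 peaks, some of which had both. For Y14/eIF4AIII peaks the numbers were 1821 and 1907. No peak of the other list lay within 10000 nt of 10.9% and 9.30% of the unmatched peaks, respectively.

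To compare the ends of the footprints, each peak was paired with the partner that shares most bases, and 5531 pairs that chose each other were kept. The median pair shared 30 nt. Offsets are positions in Y14/eIF4AIII minus positions in eIF4AIII/Y14 along the strand, so that a negative value lies further upstream in Y14/eIF4AIII. The 5' ends had a median offset of 0 nt (quartiles -22 and 8 nt) and the 3' ends one of 1 nt (1 to 2; quartiles -4 and 19 nt). The Y14/eIF4AIII end lay further upstream at 47.3% of the 5' ends and further downstream at 37.1%. At the 3' ends, 31.6% lay further upstream and 52.5% further downstream. The Y14/eIF4AIII peak was thus more often the longer one on both sides, and its width exceeded that of its partner by a median of 9 nt (8 to 10). This difference was 2 nt with overlap of 50% of both peaks, 17 nt in the deepest 50% of each list and 0 nt among peaks under 40 nt. If the spikes at 40 and 76 nt reflect read length, 3' ends and widths beyond 40 nt are not comparable between the lists. The Y14/eIF4AIII peak was wider in 62.0% of the pairs and narrower in 33.8%.

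Identical ends stood out from this spread. The 5' ends were identical to the base in 861 pairs (15.6%; 14.6 to 16.5) and the 3' ends in 880 (15.9%; 14.96 to 16.9). Both ends were identical in 175 pairs (3.16%; 2.72 to 3.66). The Y14/eIF4AIII peak contained its partner in 36.5% (35.2 to 37.8) of the pairs without being identical to it, and was contained in it in 19.7% (18.6 to 20.7). It was shifted upstream at both ends in 18.8% (17.8 to 19.9) and downstream in 21.9% (20.8 to 23.0). Identical ends were also found with the Btz purification, at 18.3% (17.6 to 18.9) of the 5' ends and 21.5% (20.8 to 22.2) of the 3' ends of the 13632 pairs of eIF4AIII/Y14 with Btz/eIF4AIII. The 6846 pairs of Y14/eIF4AIII with Btz/eIF4AIII had 18.9% (17.9 to 19.8) and 19.6% (18.7 to 20.6). These pairs share a list with the comparison above.

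**Figure D3:**
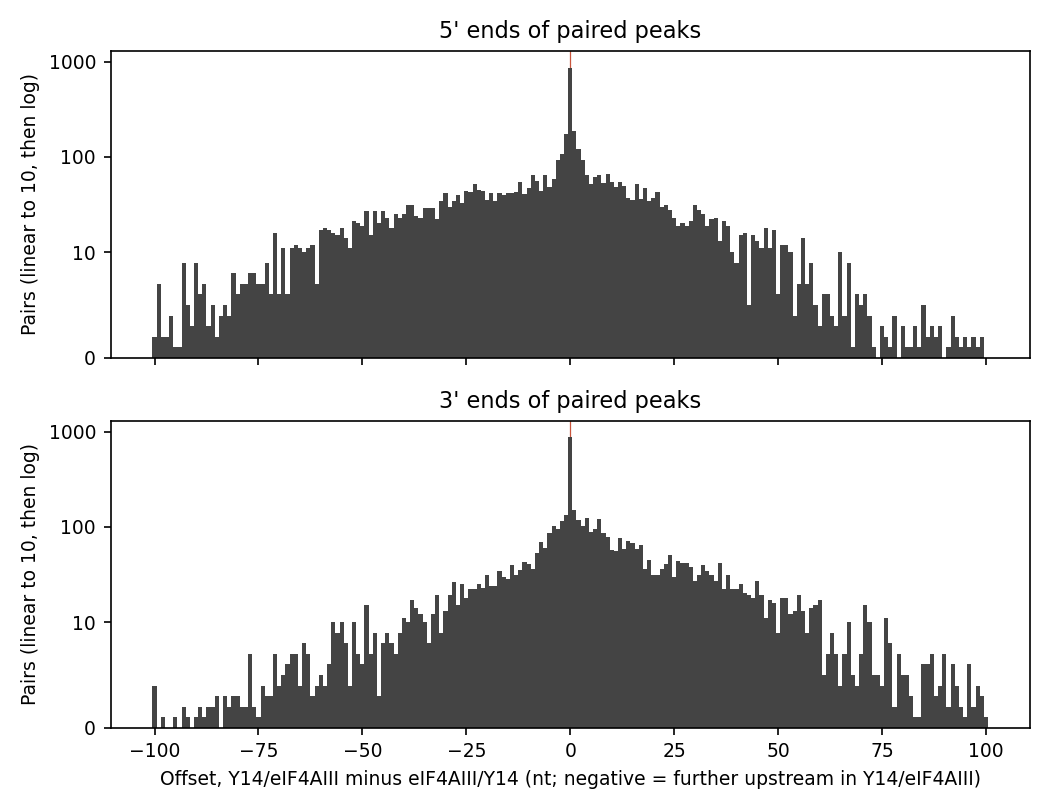
Number of pairs (y axis, linear to 10 and logarithmic above) at each offset of the 5' ends (upper panel) and 3' ends (lower panel), Y14/eIF4AIII minus eIF4AIII/Y14 (x axis, nt). Identical ends stand out with 861 and 880 pairs, and the flanks are longer upstream for 5' ends and downstream for 3' ends. Offsets beyond 100 nt (133 and 131 pairs) are not drawn.

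The offsets differed between pairs of different width. In the 1021 pairs with both peaks under 40 nt the median offset was 0 nt at both ends and the median difference in width 0 nt. The 5' ends were then identical in 42.6% (39.5 to 45.7) of the pairs and the 3' ends in 30.3% (27.5 to 33.2). In the 456 pairs whose eIF4AIII/Y14 peak was exactly 40 nt wide, the Y14/eIF4AIII peak had a median width of 55 nt. Its 3' end lay further downstream in 62.7% of these pairs, and the median 3' offset was 6 nt (3 to 7). The median 5' offset was -1 nt (-3 to 0). In the 2545 pairs whose eIF4AIII/Y14 peak was over 40 nt wide, the median offset was 1 nt (0 to 1) at the 5' end and 0 nt at the 3' end, and the Y14/eIF4AIII peak was narrower, with a median difference of -4 nt (-5 to -2). In the 803 of these pairs with a Y14/eIF4AIII peak over 76 nt, the medians were -18 nt (-23 to -12) at the 5' end and 8 nt (6 to 12) at the 3' end. Choosing pairs by the width of 1 peak favours the difference in that direction, and limiting or cutting both peaks draws the offsets towards 0, so these sets only describe the pairs. Cutting every peak to its first 40 nt left 4519 pairs, with a median offset of 0 nt at both ends. Over all 5531 pairs the medians were 0 nt at the 5' end and 1 nt at the 3' end.

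Where only 1 end was identical, the free end moved unequally on the 2 sides. In 686 pairs with identical 5' ends alone, the 3' end of Y14/eIF4AIII lay further downstream in 64.1% and further upstream in 35.9%. In 705 pairs with identical 3' ends alone, the 5' end lay further upstream in 46.2% and further downstream in 53.8%. The part of the width spike at 40 nt in this difference was not tested. Among pairs with an eIF4AIII/Y14 peak under 40 nt, the free 3' end lay further downstream in 74.7% of 434 and the free 5' end further upstream in 61.5% of 283. A narrow eIF4AIII/Y14 peak by itself favours a free end that extends outward on either side.

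Ends that faced a short gap agreed far more often. Short gaps, 50 to 75 nt to the next peak of the same list and strand, have the length of the most common fly introns, but could not be set beside annotated introns. In 262 pairs both peaks had such a gap downstream, and their 3' ends were identical in 77.1% (71.5 to 82.0). Where neither had one (4298 pairs) the share was 13.2% (12.2 to 14.2), and where only 1 of them had one (971 pairs) it was 11.5% (9.59 to 13.7). At upstream gaps the 5' ends were identical in 80.5% (75.2 to 85.1) of 262 pairs with a gap in both lists. The shares were 12.9% (11.9 to 13.9) of 4533 pairs with a gap in neither and 8.97% of 736 pairs with a gap in 1. The requirement of a gap of similar length in both lists itself favours ends that lie close together, so these shares are a description.

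The ends that looked away from the gap did not share this agreement. With a short gap downstream in both lists, the 5' ends were identical in 9.54% (6.27 to 13.8) of the pairs, with a median distance of 16 nt between them. With a short gap upstream in both, the 3' ends were identical in 9.92% (6.59 to 14.2), with a median distance of 11 nt. The peaks on the 2 sides of the gap also differed in size. Upstream of the gap the median widths were 46 nt in eIF4AIII/Y14 and 41 nt in Y14/eIF4AIII. Downstream of it they were 18.5 nt and 27.5 nt. Upstream of a short gap eIF4AIII/Y14 was thus the list with the wider peaks, with a median difference of -2 nt (-6 to 0) that reaches 0 within its interval, while over all pairs it was the narrower one. In the 3557 pairs with no short gap on either side in either list, 13.6% (12.4 to 14.7) of the 5' ends and 13.7% (12.6 to 14.8) of the 3' ends were identical.

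Depth ranks hardly carried over from one order to the other. Over the 5531 pairs the Spearman coefficient of depth was 0.04, a description across pairs of the same transcripts and libraries. It was 0.02 for the pairs of eIF4AIII/Y14 with Btz/eIF4AIII and 0.19 for those of Y14/eIF4AIII with Btz/eIF4AIII. For summed depth, which grows with width, it was 0.12, and for width itself 0.31. Among the 803 pairs described above, with peaks over 40 nt in eIF4AIII/Y14 and over 76 nt in Y14/eIF4AIII, the coefficient of depth was 0.21. The percentiles of the peaks of a pair differed by a median of 28.0, by at most 10 in 20.7% of the pairs and by more than 50 in 24.6%.

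Agreement was somewhat higher among the deepest peaks, which were also wider than their lists as a whole. With 4 depth classes per list, 1872 pairs (33.8%) had their eIF4AIII/Y14 peak in the deepest class and 1646 (29.8%) their Y14/eIF4AIII peak. Both were in it in 615 pairs. Among the former, 32.9% had their Y14/eIF4AIII peak in it too, against 29.8% of all pairs. Among the latter, 37.4% had their eIF4AIII/Y14 peak in it too, against 33.8% of all pairs. The opposite corners held 373 pairs in the deepest class of eIF4AIII/Y14 and the lowest of Y14/eIF4AIII, and 295 the other way round. Both peaks were in the lowest class in 226 pairs. The 10 deepest peaks of each list were all matched. So were 70 of the 100 deepest eIF4AIII/Y14 peaks (60.0 to 78.8%) and 77 of the 100 deepest Y14/eIF4AIII peaks (67.5 to 84.8%). Among the 1000 deepest the shares were 40.4% and 40.8%, against 16.7% and 35.1% over all peaks. The share of the 1000 deepest Y14/eIF4AIII peaks (37.7 to 43.9) was not above that of depth class 8 of that list, 43.7% (41.3 to 46.2). These intervals overlapped. Median widths were 48 and 74 nt in the 100 deepest and 43 and 60 nt in the 1000 deepest. They were 31 and 48 nt in the whole lists, and the part of width in these shares was not tested. Paired partners of the 100 deepest eIF4AIII/Y14 peaks had a median percentile of 72.1 in Y14/eIF4AIII, and 20 of 69 fell below the median of that list. Partners of the 100 deepest Y14/eIF4AIII peaks stood at a median of 90.0 in eIF4AIII/Y14, with 17 of 76 below the median. Only 9 pairs joined peaks among the 100 deepest of both lists.

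**Figure D4:**
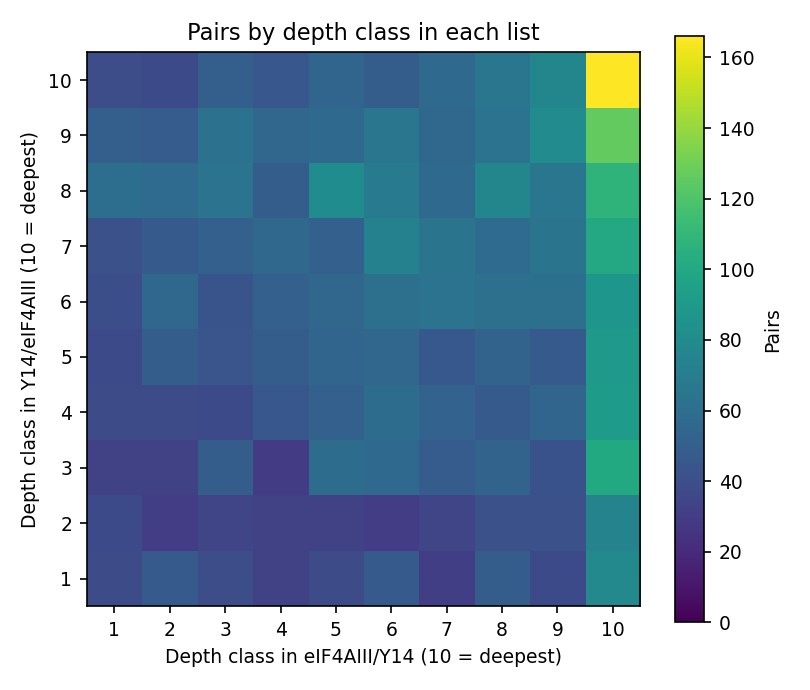
Number of pairs (colour) by the depth class of the eIF4AIII/Y14 peak (x axis) and of the Y14/eIF4AIII peak (y axis), 10 classes each with 10 the deepest. The most filled field is class 10 in both lists with 166 pairs, while the remaining fields show little of a diagonal, as the coefficient of 0.04 states. The column of class 10 is bright throughout because it holds 1020 pairs.

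The 5 pairs that ranked highest in both lists agreed closely at their 5' ends. On 3L, plus strand, the eIF4AIII/Y14 peak at 224113 to 224183 had 23666 reads per base and ranked 3. Its partner at 224112 to 224189 had 9412 reads per base and ranked 12 in Y14/eIF4AIII. On 2R, plus strand, both lists held the identical span 10511513 to 10511578, at rank 33 with 4675 reads per base and at rank 4 with 17491. The other 3 pairs lay on the plus strand of 2R too. At 13504258 to 13504421 the eIF4AIII/Y14 peak ranked 51 and its partner ranked 3, with a 5' offset of -2 nt and a 3' offset of 7 nt. At 17212724 to 17212812 the ranks were 9 and 28, the 5' ends were identical and the 3' offset was 14 nt. At 17219079 to 17219116 the ranks were 7 and 30, the 5' offset was 1 nt and the 3' offset 43 nt. In these pairs the 5' offsets ran from -2 to 1 nt, while the 3' end of Y14/eIF4AIII was never further upstream. Each peak of the 5 named pairs also had a Btz/eIF4AIII counterpart.

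The pairs with the greatest difference in percentile lay at the opposite corners. On 2R, minus strand, the eIF4AIII/Y14 peak at 5322908 to 5322931 had 1432 reads per base (percentile 99.1) and shared 20 nt with a Y14/eIF4AIII peak of 1.41 reads (percentile 0.0342). On the same strand of 2R, 1091259 to 1091307 had 2067 reads per base against 2.27. On 3L, minus strand, the peak at 6205121 to 6205157 had 4475 reads per base against 3, although the 3' ends were identical and the 5' ends 4 nt apart. In the other direction, the eIF4AIII/Y14 peak on 3L, plus strand, at 22903640 to 22903655 had 3.94 reads per base and its partner 2095 (percentile 99.5). The next, on the same strand at 20344424 to 20344430, had 4 reads per base against 1766, with identical 5' ends and a 3' offset of 53 nt. On 3R, minus strand, the peak at 1122360 to 1122399 had 4 reads per base against 1665. Of these 6 pairs, those on 3L at 22903640 and on 3R had no Btz/eIF4AIII peak at either member.

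Some of the deepest peaks had no match. In eIF4AIII/Y14 the deepest unmatched peak was on X, plus strand, at 1672549 to 1672592, with 6274 reads per base at rank 11. The next Y14/eIF4AIII peak lay 268 nt downstream of it. Rank 12, on 2R, minus strand, at 5060811 to 5060851, had 6227 reads per base, and rank 13, on X, plus strand, at 2564241 to 2564291, had 6177. All 3 overlapped a Btz/eIF4AIII peak, at ranks 26944, 601 and 9362 of that list. In Y14/eIF4AIII the deepest unmatched peak, on 3L, minus strand, at 1532507 to 1532574, had 4256 reads per base at rank 29 and no Btz/eIF4AIII peak. Its nearest eIF4AIII/Y14 peak was 112 nt downstream. Rank 35, on 3R, plus strand, at 25882696 to 25882756, had 3907 reads per base. Rank 37, on 2L, minus strand, at 1167278 to 1167340, had 3659 reads per base and directly adjoined an eIF4AIII/Y14 peak on its downstream side, with 0 nt between them. Both overlapped a Btz/eIF4AIII peak.

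Across the chromosomes the matched share differed somewhat among the large autosomal arms and was lower on X. On 2L, 2R, 3L and 3R together 17.1% (16.6 to 17.5) of the eIF4AIII/Y14 peaks and 36.5% (35.6 to 37.3) of the Y14/eIF4AIII peaks were matched. The single arms ran from 15.8% (15.0 to 16.6) on 3R to 18.0% (17.1 to 18.9) on 3L in eIF4AIII/Y14 and from 35.2% (33.7 to 36.8) on 3R to 38.8% (37.2 to 40.5) on 2R in Y14/eIF4AIII, so that the lowest and highest arm did not overlap in either list. On X the shares were 12.9% (12.0 to 13.9) and 28.7% (26.9 to 30.6), a difference from the autosomal arms of -4.15 (-5.15 to -3.12) and -7.72 (-9.73 to -5.67) percentage points. Peaks of X stood at a median depth percentile of 45.7 in eIF4AIII/Y14 and 49.6 in Y14/eIF4AIII, against 50.4 and 50.9 on the autosomal arms. Their nearest neighbour lay 198 and 465 nt away at the median, against 165 and 325 nt. Overlap with Btz/eIF4AIII was lower on X too, at 35.8% against 42.6% of the eIF4AIII/Y14 peaks and 37.3% against 45.6% of the Y14/eIF4AIII peaks. Neighbour distance and depth thus moved with the lower share, and their part was not tested.

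The matched share was lower on X in each width class of both lists, though several of the intervals overlapped. Of the eIF4AIII/Y14 peaks of at least 50 nt, 29.9% (26.5 to 33.4) were matched on X and 37.9% (36.4 to 39.3) on the autosomal arms. For Y14/eIF4AIII the values were 33.2% (30.4 to 36.2) and 44.0% (42.8 to 45.3). At 1 to 24 nt they were 7.82% (6.59 to 9.20) and 10.5% (9.91 to 11.2) in eIF4AIII/Y14, and 24.6% (20.6 to 29.0) and 25.9% (24.2 to 27.8) in Y14/eIF4AIII. At 35 to 49 nt they were 14.4% (12.5 to 16.5) and 19.4% (18.5 to 20.4) in eIF4AIII/Y14, and 25% (21.6 to 28.6) and 31.1% (29.5 to 32.8) in Y14/eIF4AIII. When both lists were limited to peaks under 40 nt, X minus the autosomal arms was -0.603 percentage points (-1.26 to 0.117) in eIF4AIII/Y14 and -1.67 (-4.23 to 1.07) in Y14/eIF4AIII. This limit also removed wider partners. The shares over all sequences were then 4.30% and 17.0%, against 16.7% and 35.1% without it. The difference on X was not computed relative to these shares, and the reason for its smaller size was not tested.

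Chromosome 4, a small and largely heterochromatic chromosome, had the highest share among the main chromosomes. There 21.2% (18.0 to 24.6) of 618 eIF4AIII/Y14 peaks and 54.8% (48.1 to 61.3) of 230 Y14/eIF4AIII peaks were matched. In eIF4AIII/Y14 this interval overlapped those of 2L, 2R and 3L. The nearest neighbour lay 113 nt (eIF4AIII/Y14) and 326.5 nt (Y14/eIF4AIII) away at the median, against 165 and 325 nt on the autosomal arms. Its eIF4AIII/Y14 peaks were deep within their list, at a median percentile of 67.9, whereas its Y14/eIF4AIII peaks stood at 52.2. Overlap with Btz/eIF4AIII was high there as well, at 52.1% and 62.6%. The assembled heterochromatic sequences held 192 and 106 peaks, of which 19.8% (14.4 to 26.1) and 34.0% (25.0 to 43.8) were matched, with intervals that included the autosomal values.

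Unplaced sequence went against the rest of the genome. On Uextra the eIF4AIII/Y14 list had 127 peaks and the Y14/eIF4AIII list 387, or 3.05 times as many, whereas on the large autosomal arms Y14/eIF4AIII had 0.452 times as many. Of the eIF4AIII/Y14 peaks there 59.8% (50.8 to 68.4) were matched, and of the Y14/eIF4AIII peaks 18.9% (15.1 to 23.1), corresponding to 76 and 73 peaks. The Uextra peaks were wide and shallow. Their median widths were 40 and 73 nt and their median depth percentiles 19.7 and 31.0. Exactly 40 nt was the width of 16.5% of the eIF4AIII/Y14 peaks there, while 3.88% of the Y14/eIF4AIII peaks had exactly 76 nt. On U the lists held 47 and 66 peaks, with 34.0% (20.9 to 49.3) and 24.2% (14.5 to 36.4) matched. Uextra holds unplaced and repeated sequence, and the treatment of reads that map to several places is not stated by the sources used here.

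**Figure D5:**
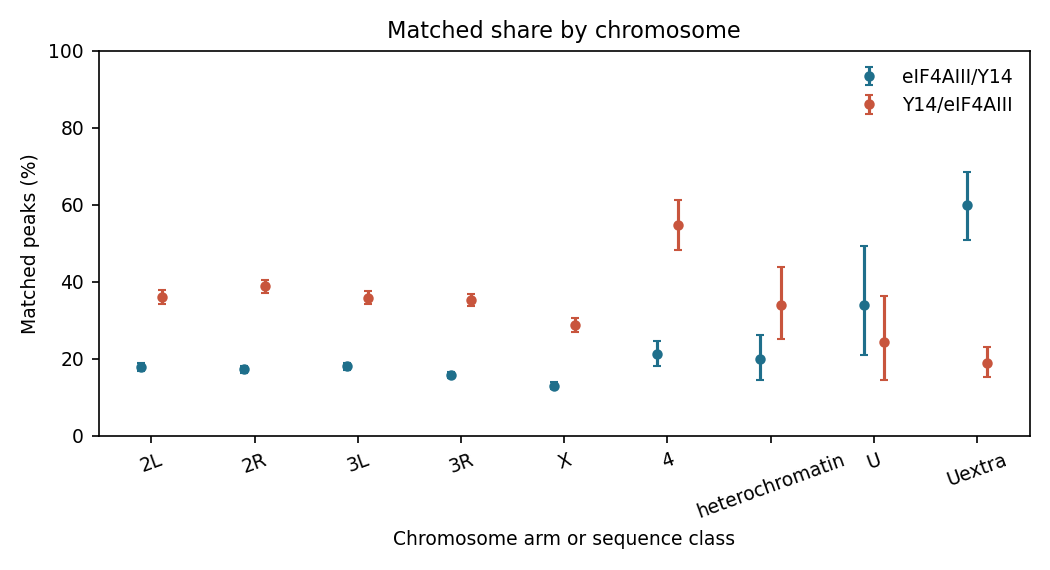
Matched peaks (y axis, %) by chromosome arm or sequence class (x axis) in eIF4AIII/Y14 and Y14/eIF4AIII; bars are exact 95% binomial intervals. X lies lowest among the main chromosomes with 12.9% and 28.7%, chromosome 4 highest with 21.2% and 54.8%, and on Uextra the order of the lists is exchanged (59.8% and 18.9%).

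The lists were also compared in windows, without regard to strand. Of 6516 windows of 10 kb with a peak of either list, 4029 (61.8%) held peaks of both, 1632 of eIF4AIII/Y14 alone and 855 of Y14/eIF4AIII alone. The Spearman coefficient of peak counts over these windows was 0.64, a description across windows that share their transcripts. Pairs, placed by their eIF4AIII/Y14 peak, fell in 2326 windows. Windows with both lists but without a pair numbered 1705.

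The 5 windows with most pairs were led by neighbouring windows on 3L. From 500001 to 510000 there were 59 eIF4AIII/Y14 and 47 Y14/eIF4AIII peaks and 38 pairs, and from 490001 to 500000 there were 51 and 43 peaks and 31 pairs. Both windows had peaks on both strands. In the former, 14 of the 38 pairs had identical 5' ends and 1 had identical 3' ends. Peaks there were shallow in Y14/eIF4AIII, with a median of 12.1 reads per base against 34 in the list, but not in eIF4AIII/Y14, with 61 against 52. The next were 2L from 8220001 to 8230000 with 23 pairs, 2L from 5010001 to 5020000 with 19 and 2R from 13410001 to 13420000 with 18. In the 2L window at 8220001 and the 2R window every peak of both lists lay on the minus strand, and in the 2L window at 5010001 all but 1 did.

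Windows marked in 1 order alone were also found. On 3L from 8560001 to 8570000 there were 15 eIF4AIII/Y14 peaks, 14 of them on the plus strand, and 0 Y14/eIF4AIII peaks. Windows on 3L from 20830001 to 20840000 and on 2L from 10430001 to 10440000 held 14 and 13 eIF4AIII/Y14 peaks against 0. Windows of the reverse kind held fewer peaks. On 2R from 13740001 to 13750000 the Y14/eIF4AIII list had 6 peaks on the plus strand and eIF4AIII/Y14 had 0. Windows on 3R from 7380001 to 7390000 and on 2L from 5130001 to 5140000 held 5 and 4 against 0. The lists hold called peaks alone, so a window with 0 peaks may still hold reads below the authors' calling threshold.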

How the data were processed

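RNA fragments recovered with the EJC were sequenced from 3 tandem purifications, 1 library each, and the 2 that use eIF4AIII and Y14 were compared. For each library the authors deposited 1 list of peaks with strand and a signal value. Track names contain "clipped" and "merged", per the file headers. That of the eIF4AIII/Y14 list names Y14 alone, and the list was assigned by its sample label. Per the submitters' processing notes Bowtie and SAMtools were used, without versions or roles. The sources used here name no caller, threshold, read length or genome build; release 5 was inferred from the sequence names. In 100% of peaks the deposited signal times the width came out whole (tolerance 0.001), so it was read as a mean depth in reads per base.

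From these lists, same-strand overlap (minimum 1 bp), mutual best pairs (most shared bases, ties by depth and then by the upstream peak), end offsets and depth percentiles were computed with Python 3.11.15, NumPy 2.4.6, pandas 2.3.3 and SciPy 1.17.1. Overlap and offset functions were tested on simulated data. Intervals on shares are exact (Clopper-Pearson), intervals on medians come from order statistics, and that on the difference between X and the autosomal arms is of Newcombe's form. Named places are the 5 pairs whose lower depth percentile is highest, the 5 windows of 10 kb with most pairs, and, in each direction, the 3 deepest unmatched peaks, the 3 pairs most unequal in percentile and the 3 windows with most peaks of 1 list and 0 of the other. The comparison, its lists and rules were chosen with earlier results of these data known. No gene names or sequences are given, since no genome of release 5 was used here. Alternatives tried were other overlaps, depth limits, list lengths, widths, pairings and depth measures.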

Additional observations from a re-analysis of the deposited data

How the results depend on the processing

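Of 94 recomputed values, 54 stayed within the interval of the reported value and 40 did not. No paired analysis was possible because each purification had 1 library and no test was made. Merging peaks at most 5 nt apart changed nothing, since no gap was under 25 nt. Settings based on 40 nt, and on the most common widths, were chosen after seeing the data.

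The matched share (16.7% of eIF4AIII/Y14 and 35.1% of Y14/eIF4AIII) was 8.05% and 17.5% with overlap of 50% of both peaks, 14.9% and 31.5% with 10 bp, 11.4% and 24.3% in the deepest 50% of each list, 19.5% and 19.55% with lists of equal length, 4.30% and 17.0% with peaks under 40 nt, 12.95% and 28.1% with the first 40 nt of each peak, and 16.3% and 32.6% without peaks of 40 and 76 nt, respectively. With peaks of 15 nt or more the Y14/eIF4AIII share was 34.2%. The median 5' offset was -2 nt in the deepest 50% of each list. The median 3' offset was 0 nt with overlap of 50%, with equal lengths, with peaks under 40 nt and with the first 40 nt. The median difference in width (9 nt) was 2 nt with overlap of 50%, 17 nt in the deepest 50%, 6 nt with equal lengths, 11 nt over all overlapping pairs, and 0 nt with peaks under 40 nt or the first 40 nt. The median depth percentile of matched eIF4AIII/Y14 peaks was 63.6 with overlap of 50%, 58.8 with 10 bp, 59.0 in the deepest 50%, 59.6 with equal lengths and 64.8 by summed depth. That of Y14/eIF4AIII was 53.4 with overlap of 50% and 52.9 in the deepest 50%. In the deepest 50% and with equal lengths, percentiles were ranked anew within the lists as cut. Those values are therefore not on the scale of the full lists. The Spearman coefficient of depth was 0.12 in the deepest 50% and 0.12 by summed depth. X minus the autosomal arms was -1.61 and -3.25 percentage points with overlap of 50% and -0.603 and -1.67 with peaks under 40 nt. In eIF4AIII/Y14 it was -3 with the first 40 nt. The cause of these shifts was not tested.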

Other observations

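Whole-number depths were commoner among unmatched peaks. Among peaks of at least 15 nt, the deposited depth was a whole number (tolerance 1e-09) for 28.4% (95% interval 27.3 to 29.6) of the matched and 56.5% (55.9 to 57.1) of the unmatched eIF4AIII/Y14 peaks. In Y14/eIF4AIII it was so for 36.7% (35.4 to 38.0) and 62.3% (61.4 to 63.3). Over all such peaks the shares were 51.7% in eIF4AIII/Y14 and 53.3% in Y14/eIF4AIII. Matched peaks were also the wider ones in both lists, and the part of width was not tested. In the 775 pairs with whole-number depths in both lists, 24.8% (21.8 to 28.0) of the 5' ends and 17.5% (14.9 to 20.4) of the 3' ends were identical, against 13.8% (12.5 to 15.2) and 16.5% (15.1 to 18.0) in the 2547 pairs with such a depth in neither. The former were also narrower, with median widths of 25 and 37 nt against 51 and 69 nt in eIF4AIII/Y14 and Y14/eIF4AIII.

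Pairs were also split by the Btz/eIF4AIII list. In 1536 pairs without a Btz/eIF4AIII peak at either member, 14.8% (13.0 to 16.7) of the 5' ends and 13.8% (12.1 to 15.6) of the 3' ends were identical. In 3766 pairs with one at both members the values were 16.4% (15.2 to 17.6) and 17.6% (16.3 to 18.8), so that the intervals overlapped for the 5' ends but not for the 3' ends. Median widths were 33 and 48 nt in the former and 42 and 56 nt in the latter, in eIF4AIII/Y14 and Y14/eIF4AIII.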
